A study of Mus musculus with 23 samples.

Results

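The genes described here were 10 water channels and ion transporters of the fluid-secreting epithelium of the pancreas, chosen by their symbols from the 18512 gene symbols counted in each library: *Aqp1*, *Aqp8*, *Aqp12*, *Slc4a4*, *Slc4a2*, *Slc26a6*, *Slc12a2*, *Ano1*, *Kcnj15* and *Kcnj16*. All 10 were in the files and 9 of the 10 passed the filter on low counts. *Kcnj15* passed it only through the day 7 mice, in which its lowest count was 12, and *Kcnj16* did not pass it.

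The RNA-seq data came from the head of the pancreas of C57BL/6 mice from Charles River aged 6 to 8 weeks, 1 library of ribosome-depleted total RNA per mouse, in a study that asked whether the transcriptome had recovered after acute pancreatitis was induced by caerulein, a peptide that overstimulates acinar cells. The baseline group held 8 non-injured mice (4 females and 4 males). The day 7 group held 8 mice (4 females and 4 males) and the day 14 group 7 mice (3 females and 4 males), collected on those days after a course of 50 µg/kg caerulein given as 8 hourly intraperitoneal injections on each of 2 consecutive days. The mice of the 3 groups were different animals of 1 strain, without any engineered allele, so a time course within 1 mouse was not measured. The libraries were made from bulk tissue, in which fewer cells of a type and less RNA per cell cannot be told apart.

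Pancreatic juice begins in acinar cells, which secrete enzymes in a chloride-rich fluid, and it is diluted and alkalinized by duct cells, which add bicarbonate and water. Chloride and bicarbonate enter the cell across the basolateral membrane, leave it through apical channels and exchangers, and draw water after them through aquaporins. Basolateral potassium channels keep the membrane potential that drives the anions out, and calcium (in acinar cells) and cyclic AMP (in duct cells) switch the process on.

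Total counts ranged from 7059890 to 9567446 per library. Values are given in CPM (a count relative to the size of its library) scaled by the trimmed mean of M values (TMM), and differences as log2 fold changes with their standard errors from edgeR's quasi-likelihood test with Benjamini-Hochberg adjustment over the 12195 genes tested. A gene was called a differentially expressed gene (DEG) at a fold change of at least 1.5 and an adjusted p of at most 0.05. The 20 most abundant genes took 66.4% to 71.2% of the counts at baseline, 55.3% to 62.8% (day 7) and 63.9% to 66.2% (day 14). The TMM factors moved with them, from 0.769 to 1.003 at baseline, 1.05 to 1.40 (day 7) and 0.93 to 1.03 (day 14). When libraries were scaled by total counts instead, the median of all genes was shifted upwards by 0.48 (day 7) and 0.22 (day 14) on the log2 scale, against 0.02 and 0.01 with TMM, so every direction given here is relative to the bulk of the genes and the directions that flip under total counts are named.

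Of the 9 tested genes, 3 were DEGs at day 7 against baseline, where 5.13% of all tested genes were DEGs. *Kcnj15* and *Slc4a4* rose and *Aqp8* fell, against 3.82% of all genes called higher and 1.31% called lower. Since *Kcnj15* had to be high at day 7 to pass the filter, the count without it was 2 of 8. At day 14 *Kcnj15* alone was a DEG against baseline, where 0.787% of all genes were, and between day 14 and day 7 none of the 9 was, where 0.377% of all genes were. In that last comparison edgeR gave an unadjusted p under 0.05 for 3 of the 9 genes, *Kcnj15*, *Aqp8* and *Aqp1*, and for 1721 of all 12195. DESeq2 called none of the 9, and 1 of them passed there by adjusted p alone, as did 335 of 7737 genes.

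**Figure D1:**
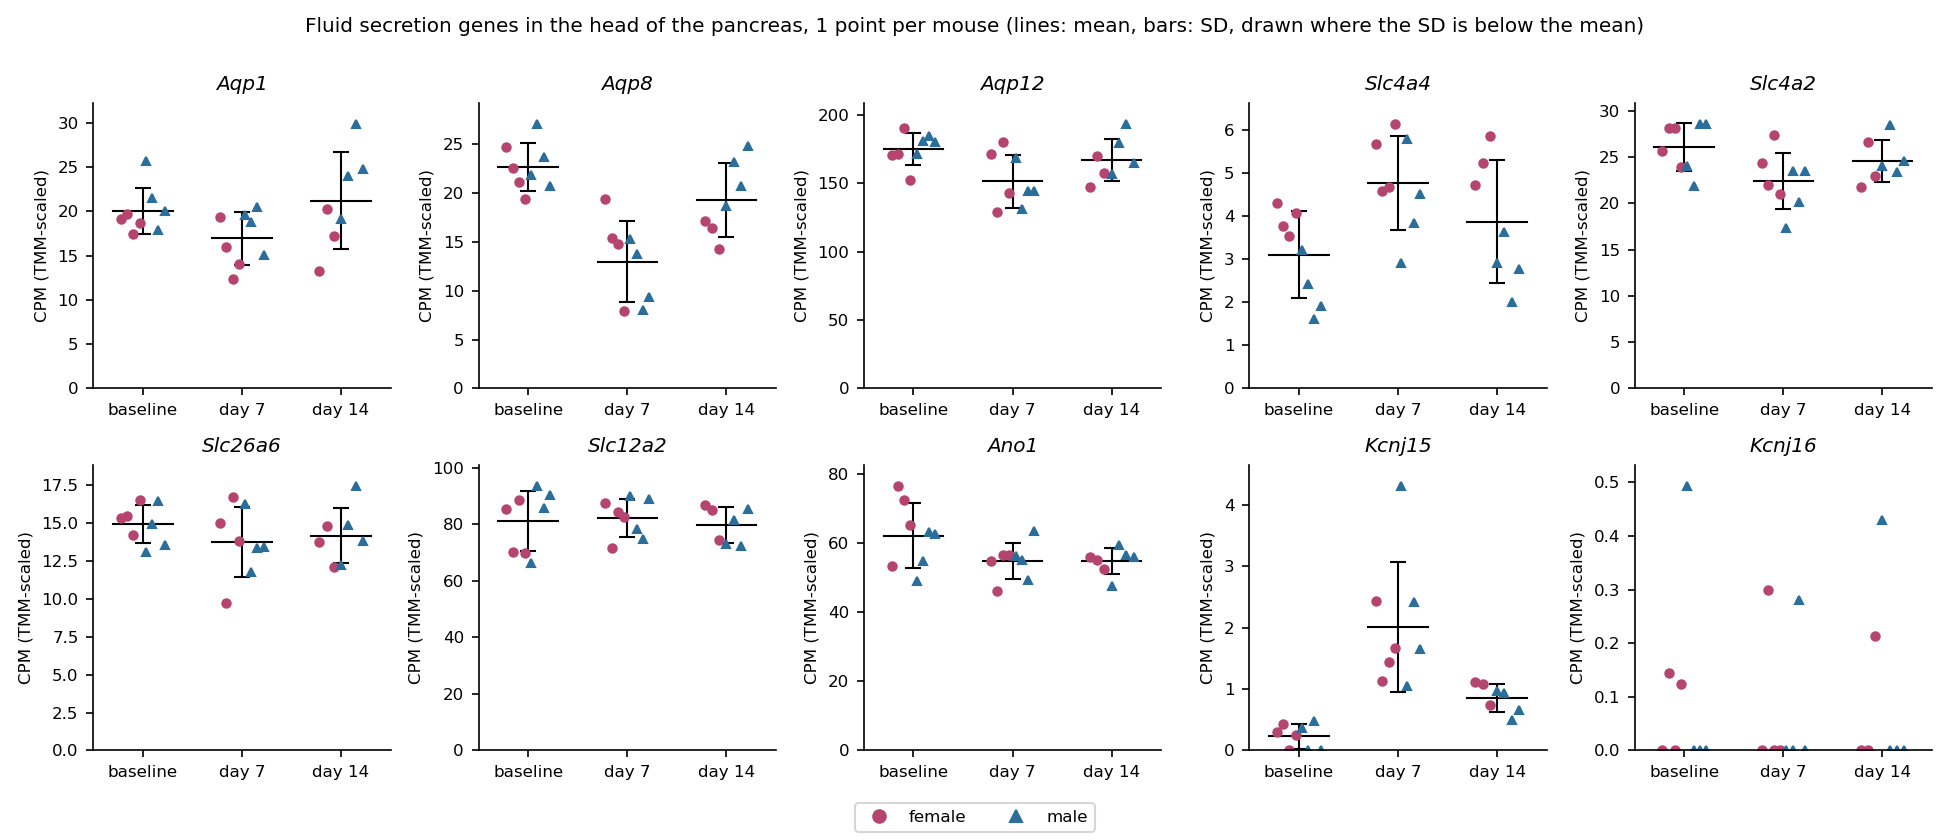
CPM of each of the 10 genes (y axis, TMM-scaled, starting at 0) in every mouse at baseline, day 7 and day 14 (x axis). Circles are females and triangles are males, horizontal lines are group means and vertical bars the SD, both drawn only where the SD is smaller than the mean (not for *Kcnj16*). The 8 day 7 mice lay below all baseline mice for *Aqp8* (7.90 to 19.4 against 19.4 to 27.1 CPM) and above them for *Kcnj15* (1.05 to 4.31 against 0 to 0.484 CPM).

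Per kilobase of exon, the 10 genes spanned a wide range at baseline. *Aqp12* stood at 161 ± 10.7 CPM per kb (SD, n = 8) and ranked 103 of 17760 genes with a known length. It was followed by *Aqp8* (14.3 ± 1.56), *Ano1* (9.97 ± 1.51), *Aqp1* (7.62 ± 0.991) and *Slc12a2* (7.44 ± 0.982), each of which overlapped its neighbour in this order over the 8 mice. *Slc4a2* (3.14 ± 0.313) and *Slc26a6* (2.76 ± 0.234) overlapped each other, and *Slc4a4* lay lower at 0.287 ± 0.093 CPM per kb. The 2 potassium channels were at the detection limit, with 13 counts of *Kcnj15* and 6 of *Kcnj16* summed over the 8 baseline mice, and their ranges overlapped.

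The aquaporins are water pores, and 3 of them made up nearly all of the aquaporin signal. *Aqp8* is known from the apical pole of acinar cells, *Aqp12* is an intracellular aquaporin known from acinar cells, and *Aqp1* is found in ducts and in the endothelium of small vessels. *Aqp8* was called lower at day 7 and *Aqp12* was not, so the 250 bases before the start of each are printed first, from the RefSeq promoter table on GRCm38.p6. They lie at chr1:93006084-93006333 (plus strand) for *Aqp12* and at chr7:123462044-123462293 (plus strand) for *Aqp8*. The starts are those of RefSeq. In GENCODE, used for the gene positions here, *Aqp8* starts at chr7:123462291, so the last bases of its window lie inside that gene. Capitals mark matches, on either strand, to the 2 half-sites known for PTF1, the transcription factor complex of acinar cells: the E-box CACCTG and the TC-box TTTCCCA, which share no overlap in these windows.
Aqp12: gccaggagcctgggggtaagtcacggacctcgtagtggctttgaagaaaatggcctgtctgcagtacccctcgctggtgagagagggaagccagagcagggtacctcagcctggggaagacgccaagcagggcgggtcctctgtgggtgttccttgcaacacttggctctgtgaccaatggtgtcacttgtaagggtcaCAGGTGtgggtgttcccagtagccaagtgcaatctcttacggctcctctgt
Aqp8: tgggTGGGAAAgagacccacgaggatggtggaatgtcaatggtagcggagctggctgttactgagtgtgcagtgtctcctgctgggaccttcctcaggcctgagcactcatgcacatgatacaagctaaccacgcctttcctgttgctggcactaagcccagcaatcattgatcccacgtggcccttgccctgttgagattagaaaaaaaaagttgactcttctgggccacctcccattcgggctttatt

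The *Aqp12* window held 1 CACCTG, read on the minus strand and starting 51 bases before the start, and the *Aqp8* window held 1 TTTCCCA, also on the minus strand, 246 bases before it. CACCTG was found in 17.2% and TTTCCCA in 6.82% of the 32851 mouse windows of the same length. Of the 14 windows of the 9 genes with an entry in the table, 4 held CACCTG and 2 held TTTCCCA. The *Aqp1* window was the only one that held both, and CACCTG was also found in the *Ano1* window and in a *Slc4a4* window. These matches are letters in a window, and binding was not measured.

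*Aqp8* (ENSMUSG00000030762, chr7:123462291-123468004, plus strand) was the only one of the 9 tested genes that fell past the threshold at day 7. At baseline it ranged from 19.4 to 27.1 CPM with a median of 22.2, at day 7 from 7.90 to 19.4 with a median of 14.3, and at day 14 from 14.2 to 24.8 with a median of 18.7. All 8 day 7 mice were below the lowest baseline mouse, the highest of them by a narrow margin (19.35 against 19.39 CPM), and 4 of the 7 day 14 mice were. The day 7 difference was -0.79 ± 0.16 (SE; edgeR, adjusted p = 0.0014), a fold of 0.577. At day 14 it was -0.24 ± 0.16 against baseline (adjusted p = 0.588) and 0.56 ± 0.17 against day 7 (adjusted p = 0.0933). With total counts the day 7 difference of *Aqp8* was smaller and not called (-0.33, adjusted p = 0.0591), and in the 4 females of each group alone it was -0.61 (adjusted p = 0.121).

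*Aqp12* (chr1:93006334-93012269, plus strand) ranged from 153 to 191 CPM at baseline, 129 to 180 (day 7) and 147 to 193 (day 14). Of the 8 day 7 mice, 5 lay below all baseline mice, and the groups overlapped. The difference at day 7 was -0.21 ± 0.07 with an adjusted p of 0.0375, below the 1.5-fold threshold, and under total counts it turned to 0.24. By adjusted p alone, 4 of the 9 tested genes passed at day 7 (*Kcnj15*, *Slc4a4*, *Aqp8* and *Aqp12*), where 18.6% of all genes did. At day 14 the *Aqp12* difference was -0.07 ± 0.07 (adjusted p = 0.747).

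*Aqp1* (chr6:55336432-55348555, plus strand) did not pass the test in any comparison of time points. It ranged from 17.5 to 25.6 CPM at baseline, 12.4 to 20.4 (day 7) and 13.2 to 29.9 (day 14). The day 7 difference was -0.24 ± 0.11 (adjusted p = 0.113; 0.21 under total counts) and the day 14 difference 0.04 ± 0.11 (adjusted p = 0.94). The spread was widest at day 14, where the 3 females stood at 13.2, 17.2 and 20.2 CPM and the 4 males at 19.1 to 29.9. Averaged over time points, males were higher by 0.32 ± 0.09 on the log2 scale, which missed the threshold (adjusted p = 0.13).

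A ratio of the counts of 2 genes in the same mouse needs no scaling of the library, and 4 such ratios were compared between the groups by exact two-sided permutation tests of their mean log2 values (12 tests, adjusted together). The ratios were chosen after the data were seen, those with *Aqp8* or *Slc4a4* because these genes had been called, so their p-values are not independent evidence of the direction. The ratio of *Aqp8* to *Aqp12* counts was 0.129 ± 0.0131 (SD, n = 8) at baseline, 0.0858 ± 0.0254 (n = 8) at day 7 and 0.116 ± 0.0205 (n = 7) at day 14. The log2 ratio was lower at day 7 than at baseline by an exact permutation test (difference -0.64, p = 0.000777, adjusted p = 0.00466), and the difference at day 14 was -0.17 (adjusted p = 0.212). *Aqp8* to *Aqp1* moved the same way at day 7, from 1.14 ± 0.16 to 0.782 ± 0.262 (difference -0.61, exact permutation adjusted p = 0.0242). For *Aqp1* to *Aqp12* the ratio was 0.115 ± 0.0176 at baseline and 0.114 ± 0.0243 at day 7 (difference -0.03, exact permutation adjusted p = 0.833). The size of an unequal change does not say which of the 2 genes of a ratio moved.

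**Figure D2:**
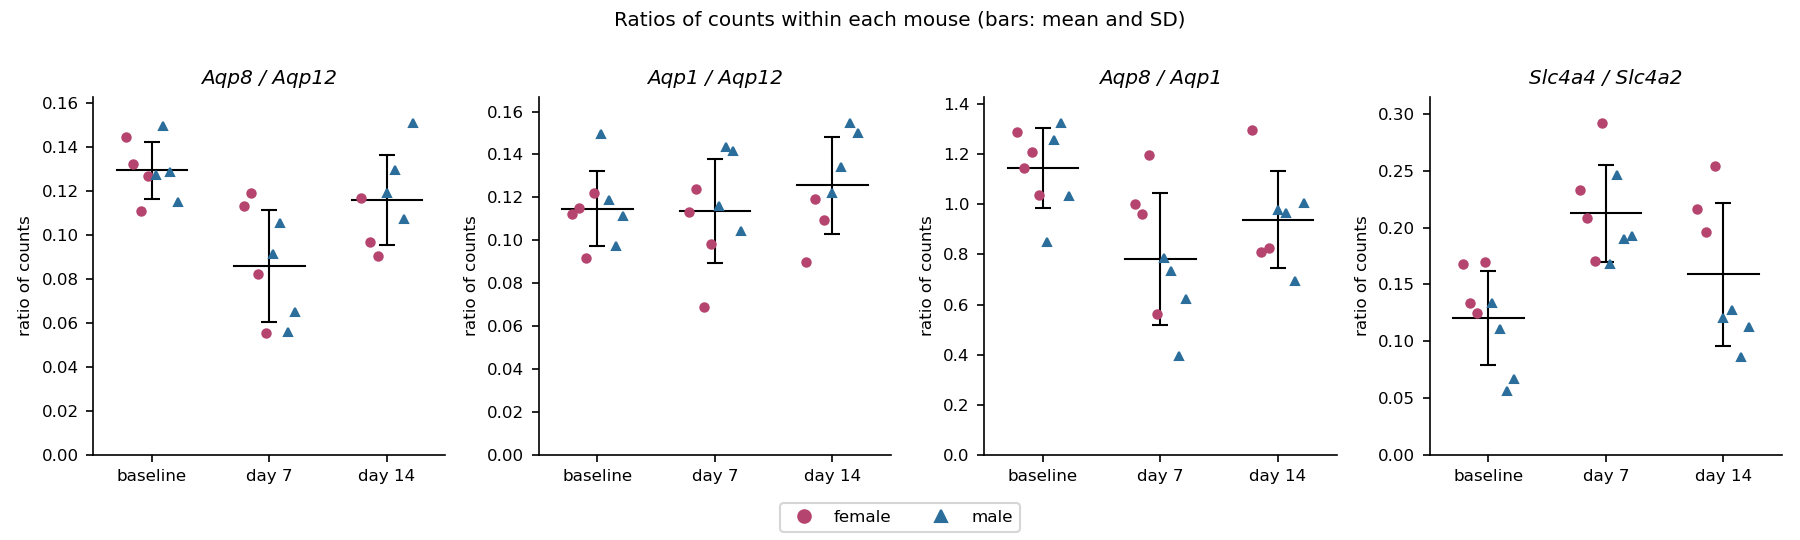
Ratio of the counts of 2 genes in the same mouse (y axis, no unit, starting at 0) at baseline, day 7 and day 14 (x axis), with females as circles, males as triangles, the group mean as a line and the SD as a bar. The mean of *Aqp8* to *Aqp12* goes from 0.129 to 0.0858 and back to 0.116, that of *Aqp1* to *Aqp12* from 0.115 to 0.114 and 0.126, and that of *Slc4a4* to *Slc4a2* from 0.121 to 0.213 and 0.159.

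Of the 9 aquaporin symbols in the files, 4 were tested at day 7. *Aqp11*, an intracellular aquaporin of low level here, was the second one that fell, from 0.986 to 2.26 CPM at baseline to 0.501 to 1.32 at day 7 (-0.73 ± 0.24, adjusted p = 0.0345). Its counts were 5 to 14 per mouse in those groups, DESeq2 did not call it (adjusted p = 0.0668), and the call was lost in 5 of the 16 fits that left out 1 mouse and under total counts (-0.28, adjusted p = 0.297). *Aqp5*, the apical water channel of salivary glands and of duct cells, had counts in all 23 mice but was too low to be tested.

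Among the bicarbonate and chloride transporters, *Slc4a4* (ENSMUSG00000060961, chr5:88886818-89239653, plus strand), which encodes the basolateral sodium bicarbonate cotransporter that loads duct cells, was the one that rose. It ranged from 1.61 to 4.30 CPM at baseline (median 3.36), from 2.91 to 6.13 at day 7 (median 4.62) and from 2.01 to 5.85 at day 14 (median 3.63), on 10 to 66 counts per mouse. Of the 8 day 7 mice, 6 lay above every baseline mouse, and the groups overlapped. The difference was 0.64 ± 0.16 at day 7 (adjusted p = 0.00606), a fold of 1.56 that lies just past the threshold. Leaving out baseline mouse 7 or day 7 mouse 14 brought it to folds of 1.49 and 1.45, below the threshold, with adjusted p of 0.0161 and 0.0174. At day 14 it was 0.34 ± 0.17 (adjusted p = 0.389), and between day 14 and day 7 it was -0.30 ± 0.16 (adjusted p = 0.414).

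*Slc4a4* also differed between the sexes. Females were higher, with a male against female difference of -0.62 ± 0.13 over the 3 time points (adjusted p = 0.0237), a fold of 0.652, in a comparison in which 0.23% of all tested genes were DEGs. At baseline the 4 females stood at 3.52 to 4.30 CPM and the 4 males at 1.61 to 3.21, and at day 14 the 3 females stood at 4.71 to 5.85 and the 4 males at 2.01 to 3.63. The sexes did not overlap at either time point, in groups of 3 or 4 mice. The share of all genes without overlap between the sexes was not counted, so the separation alone carries no weight. The female mean was 1.71 and 1.86 times the male mean. At day 7 the sexes overlapped (4.57 to 6.13 in females and 2.91 to 5.79 in males) and the ratio of means was 1.24. The sex call was lost without baseline mouse 7, day 7 mouse 13, day 14 mouse 19 or day 14 mouse 23, with adjusted p from 0.0405 to 0.0629 and folds of 0.668 to 0.674.

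The day 7 difference of *Slc4a4* was 0.42 in females (adjusted p = 0.157) and 0.86 in males (adjusted p = 0.0666) when each sex was fitted alone. The interaction of sex with time was 0.46 ± 0.31 at day 7 (unadjusted p = 0.161, adjusted p = 0.947), so a different response in the sexes was not shown. None of the 9 genes passed the interaction test by adjusted p at day 7 or day 14 in edgeR, none had an unadjusted p under 0.05 in it and DESeq2 called none. Among the 12933 genes of that fit, 0.00773% passed at day 7 and 0% at day 14, and 705 and 473 had an unadjusted p under 0.05. *Aqp8* did not overlap between the sexes at day 14 (14.2 to 17.2 CPM in 3 females, 18.7 to 24.8 in 4 males), again without a share over all genes to set it against. Its interaction at day 14 was 0.36 ± 0.29 (edgeR, adjusted p = 0.99995).

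*Slc4a2* encodes a basolateral chloride bicarbonate exchanger, at chr5:24423837-24440950 on the plus strand, where it overlaps *Fastk* on the other strand, and whether counting used strand was not given in the sources used here. It ranged from 21.9 to 28.6 CPM at baseline, 17.3 to 27.4 (day 7) and 21.7 to 28.5 (day 14). The groups overlapped and the differences were -0.22 ± 0.08 at day 7 (adjusted p = 0.0543; 0.23 under total counts) and -0.08 ± 0.08 at day 14 (adjusted p = 0.746; 0.13 under total counts). The ratio of *Slc4a4* to *Slc4a2* counts had a baseline mean of 0.121 ± 0.0416, a day 7 mean of 0.213 ± 0.0424 and a day 14 mean of 0.159 ± 0.063. By an exact permutation test the log2 ratio was higher at day 7 than at baseline (difference 0.89, p = 0.000466, adjusted p = 0.00466) and the day 14 difference was 0.39 (adjusted p = 0.212). Of the 9 *Slc4* symbols, 4 were tested, and *Slc4a7*, another sodium bicarbonate cotransporter, rose at day 7 (0.30 ± 0.07, adjusted p = 0.00238) and at day 14 (0.28 ± 0.07, adjusted p = 0.0329) below the 1.5-fold threshold.

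*Slc26a6* (chr9:108853283-108913049, plus strand), an apical exchanger of chloride for bicarbonate, ranged from 13.1 to 16.5 CPM at baseline, 9.74 to 16.7 (day 7) and 12.1 to 17.5 (day 14). *Slc12a2*, the basolateral cotransporter of sodium, potassium and chloride, ranged from 66.2 to 93.6 CPM, from 71.5 to 89.9 and from 72.2 to 86.8. Both overlapped at all 3 time points. For *Slc12a2* the interval of the day 7 difference with TMM was narrow, -0.12 to 0.16 around 0.02 (95% interval from its SE, edgeR, adjusted p = 0.885). Under total counts the *Slc12a2* difference was 0.48 (adjusted p = 1.56e-07), where the median of all genes was 0.48. For *Slc26a6* the interval was -0.32 to 0.06 around -0.13 (adjusted p = 0.387), which turned to 0.32 under total counts. The day 14 differences were -0.02 ± 0.08 and -0.08 ± 0.10. Over the 6 tested *Slc12* symbols the day 7 differences lay between -0.21 and 0.15, and over the 3 tested *Slc26* symbols between -0.13 and 0.03.

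The apical chloride channel of acinar cells is encoded by *Ano1* (chr7:144588549-144751974, minus strand), a calcium-activated channel. It ranged from 49.2 to 76.6 CPM at baseline with a median of 63.0, 46.1 to 63.5 with a median of 55.8 (day 7), and 47.6 to 59.5 with a median of 55.9 (day 14). The groups overlapped, and the upper values of the baseline group, in females at 76.6, 72.5 and 65.4 CPM, were not reached later. The differences were -0.18 ± 0.08 at both day 7 (adjusted p = 0.104) and day 14 (adjusted p = 0.327), and under total counts both turned positive (0.27 and 0.03). *Ano1* is also a marker of interstitial cells of Cajal, and the summed level of a list of 6 markers of those cells and of smooth muscle was 39.4 to 65.0 CPM at baseline, 31.3 to 114 (day 7) and 35.4 to 103 (day 14). Their part in the *Ano1* level was not tested.

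The inward rectifier *Kcnj15* (ENSMUSG00000062609, chr16:95257558-95300260, plus strand) is a potassium channel subunit that can pair with the product of *Kcnj16*, and it had the largest difference of the 10 genes at very low counts. The baseline mice had 2, 3, 0, 2, 3, 0, 3 and 0 counts. The day 7 mice had 24, 15, 13, 16, 43, 12, 26 and 15. The day 14 mice had 10, 10, 7, 9, 8, 4 and 6. In CPM all 8 day 7 mice and all 7 day 14 mice lay above the highest baseline mouse, 3 baseline mice had no count, and 5 of the 7 day 14 mice lay below every day 7 mouse.

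The summed counts of *Kcnj15* were 13 (baseline), 164 (day 7) and 54 (day 14), or 0.239 CPM (95% exact Poisson interval 0.127 to 0.408), 1.98 CPM (1.69 to 2.3) and 0.866 CPM (0.65 to 1.13). The ratio of the pooled levels was 8.27 (4.71 to 15.9) at day 7 against baseline and 3.62 (1.95 to 7.24) at day 14, with intervals that cover counting error only. The fitted differences were 2.99 ± 0.42 at day 7 (edgeR, adjusted p = 1.63e-05) and 1.79 ± 0.47 at day 14 (adjusted p = 0.0494). The day 7 call held in each of the 16 fits that left out 1 mouse. *Kcnj15* was tested only because its day 7 counts were high, so its day 7 values and these fits are not independent support for the rise. The day 14 call was lost in 14 of 15 such fits (adjusted p 0.0505 to 0.108), the exception being the fit without day 14 mouse 23, and also with DESeq2's size factors in edgeR (adjusted p = 0.0505). Between day 14 and day 7 the difference was -1.20 ± 0.34 (adjusted p = 0.0718).

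*Kcnj15* and *Aqp8* were the 2 of 9 genes whose day 7 mice did not overlap the baseline mice, where 2.75% of all tested genes did not, and *Kcnj15* was the 1 of 9 at day 14, where 0.664% did not. *Kcnj15* passed the filter on low counts through its day 7 mice, and without it the counts were 1 of 8 and 0 of 8. *Kcnj16* (chr11:110968033-111027968, plus strand) had a count in 7 of 23 mice and at most 4, with 6, 7 and 6 counts summed over the baseline, day 7 and day 14 mice, and a difference between time points was not detectable at this depth. Of the 12 *Kcnj* symbols in the files, 3 were tested. Among the tested ones, *Kcnj15* was the only DEG in edgeR.

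**Figure D3:**
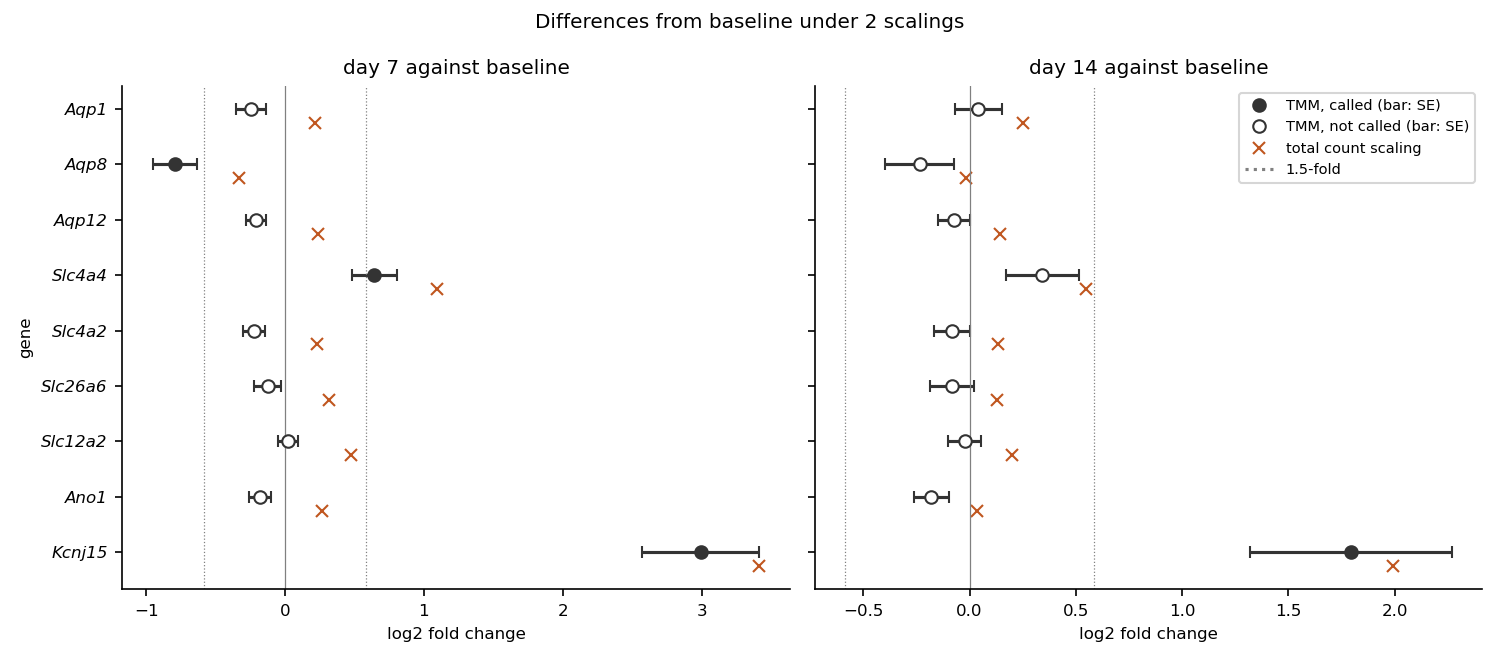
Log2 fold change (x axis) of the 9 tested genes (y axis) at day 7 and at day 14 against baseline. Circles with SE bars are edgeR with TMM, filled where the gene was called, crosses are edgeR with total counts, and dotted lines mark 1.5-fold. At day 7 *Aqp1*, *Aqp12*, *Slc4a2*, *Slc26a6* and *Ano1* lie left of 0 with TMM and right of it with total counts, while *Aqp8* stays left and *Slc4a4* and *Kcnj15* stay right.

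A further 85 genes of fluid and bicarbonate secretion were listed from textbook roles, of which 76 were in the files and 49 were tested. The list was drawn up with earlier results of these data known. Its counts of called genes are therefore not independent of those results. At day 7, 3 of the 49 rose and 3 fell past the threshold, where 3.82% and 1.31% of all genes did. *Car2*, among those that rose, passed the filter on low counts only through its day 7 mice. The median log2 fold change of the 49 was 0.00 against 0.02 over all genes. Under total counts 16 of the 49 rose and none fell past the threshold, where 3727 of all 12195 genes were DEGs, with a median of 0.44 against 0.48. At day 14, 1 rose and 1 fell, where 0.787% of all genes were DEGs, with a median of -0.03 against 0.01. Between day 14 and day 7 edgeR and DESeq2 called none, and 6 of the 49 had an unadjusted p under 0.05 in edgeR, as did 1721 of all 12195. Abundant genes of the list that were not called were *Cckar*, the receptor of cholecystokinin and of caerulein (404 to 531 CPM at baseline and 371 to 571 at day 7), the chloride transporter *Clcn3* and the kinase *Wnk1*. *Cftr*, the apical anion channel of duct cells, was looked up after the data were seen. It had 3 to 20 counts per mouse and a day 7 difference of 0.09 ± 0.30 (adjusted p = 0.858).

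*Fxyd6*, a small membrane protein that regulates ion transport, fell at both time points. It ranged from 20.2 to 31.9 CPM at baseline, 11.7 to 21.3 (day 7) and 15.6 to 18.5 (day 14), and 7 of 8 day 7 mice and all 7 day 14 mice lay below the baseline range. The differences were -0.80 ± 0.11 (adjusted p = 9.0e-06) and -0.67 ± 0.11 (adjusted p = 0.00104), and under total counts they were -0.35 and -0.45, below the 1.5-fold threshold with adjusted p of 0.000805 and 0.00112. *P2ry1*, a purinergic receptor, rose at both, from 1.04 to 2.76 CPM at baseline to 1.57 to 4.57 at day 7 (0.93 ± 0.21, adjusted p = 0.00244) and 2.15 to 4.25 at day 14 (1.02 ± 0.22, adjusted p = 0.00969). *Wnk4*, a kinase that regulates chloride cotransporters, fell at day 7 from 1.45 to 2.47 CPM to 0.674 to 1.76 (-0.67 ± 0.22, adjusted p = 0.036), on 8 to 20 counts per mouse, a call lost in 7 of 16 fits that left out 1 mouse and under total counts (-0.24, adjusted p = 0.318).

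Of the carbonic anhydrases, *Car9*, which faces the outside of the cell, rose at day 7 from 0.174 to 2.84 CPM to 1.97 to 4.21 (0.91 ± 0.28, adjusted p = 0.0213). *Car2*, the cytosolic enzyme of duct cells and of erythrocytes, rose by 1.84 ± 0.54 (adjusted p = 0.0187). It ranged from 0 to 1.73 CPM at baseline and up to 8.59 at day 7, and 2 of the 8 day 7 mice lay above the baseline range. Day 7 mouse 15, with the 8.59 CPM of *Car2*, also had the highest summed level of 7 erythroid markers, 683 CPM against 24.4 to 138 in the other day 7 mice and 27.7 to 48.9 at baseline. Without mouse 15 the mean of the day 7 group was 1.44 CPM in place of 2.34, and the *Car2* difference was 1.16 (adjusted p = 0.047), a fold of 2.24 in place of 3.58. The call held in each fit that left out 1 mouse. *Car2* passed the filter on low counts only through its day 7 mice. Its day 7 values and these fits are therefore not independent support for the rise. The part of erythroid cells in the *Car2* level was not tested.

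**Figure D4:**
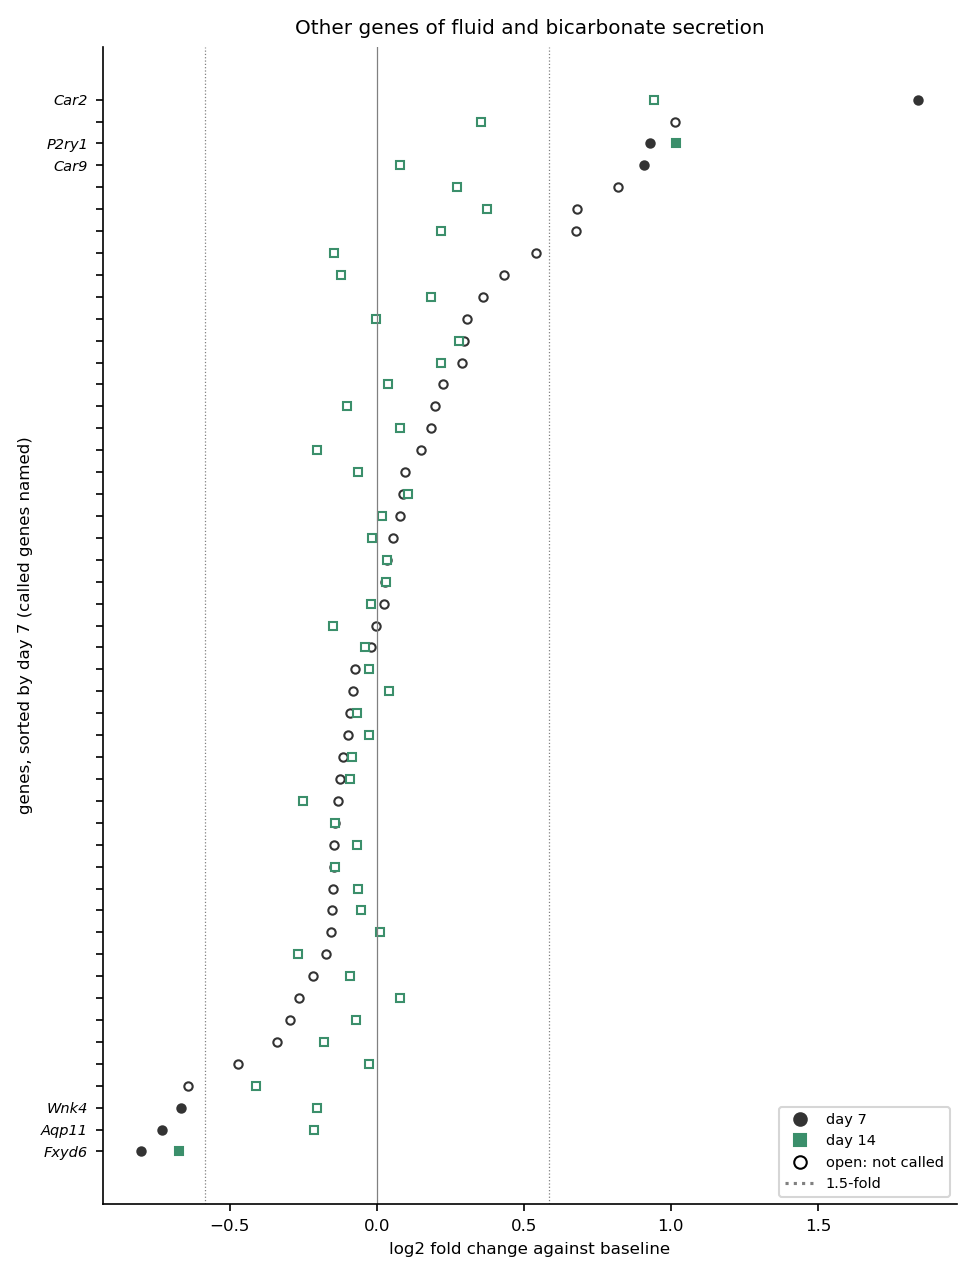
Log2 fold change against baseline (x axis) of the 49 tested genes of the longer list (y axis, sorted by their value at day 7, with the called genes named). Circles are day 7, squares are day 14, filled symbols were called and dotted lines mark 1.5-fold. The filled circles are *Car2*, *P2ry1* and *Car9* on the right and *Fxyd6*, *Aqp11* and *Wnk4* on the left, and the filled squares are *P2ry1* and *Fxyd6*.

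Markers of the cells that could hold these transcripts moved at the same time. The 11 acinar markers took 34.5% to 39.0% of all counts at baseline, 28.4% to 32.7% (day 7) and 31.6% to 35.1% (day 14). At day 7, 9 of the 11 were lower by adjusted p and 4 were DEGs, with a median of -0.56 over the list (-0.11 with 5 lower, 2 higher and none a DEG under total counts), which stood beside the -0.79 of *Aqp8* and the -0.21 of *Aqp12*. Of all genes, 18.6% passed by adjusted p at day 7, 3.82% were called higher and 1.31% lower. Under total counts 9351 of the 12195 genes passed by adjusted p and 3727 were DEGs. The summed level of the 11 ductal markers was 337 to 449 CPM at baseline, 338 to 514 (day 7) and 376 to 448 (day 14). At day 7, 2 of the 10 ductal markers tested were DEGs, both higher, with a median of 0.10 (0.55 and 5 DEGs under total counts). The 8 endothelial markers summed to 92.9 to 141, 72.5 to 122 and 96.2 to 131 CPM, with 2 of 8 lower by adjusted p at day 7 and a median of -0.33, which turned to 0.13 under total counts, beside the -0.24 of *Aqp1*. No gene of these 3 lists was at 0 throughout a group. Whether they had a part in the differences of the water channels was not tested.

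Other cell types differed as well. At day 7 all 6 fibroblast markers, 5 of 6 macrophage markers, 3 of 6 islet markers and 4 of the 5 tested erythroid markers were DEGs, each of them higher, where 3.82% of all genes were called higher. The 5 adipocyte markers ranged widely within each group, from 0.348 to 66.6 CPM in sum at baseline and from 1.11 to 147 at day 7. Of the 9 markers of intestinal epithelium, which adjoins the head of the pancreas, 6 were in the files and none was tested. They summed to 0.312 to 2.01 CPM at baseline and day 7, and to 31.5 CPM in day 14 mouse 19 against 0.435 to 3.76 in the other day 14 mice. The parts of these cell types in the values of the 10 genes were not tested.

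Over the 23 mice, deviations of log2 CPM from the mean of the time point and sex were compared between genes as a description, and these values share the library and its scaling. Among the 36 pairs of the 9 tested genes the median Pearson r was 0.12 and the range -0.41 to 0.74. The highest was between *Aqp12* and *Slc26a6*. The mean of the acinar markers had r of 0.66 with *Slc26a6*, 0.65 with *Slc12a2*, 0.63 with *Aqp12* and 0.59 with *Ano1*, but 0.01 with *Aqp8* and -0.10 with *Slc4a4*. The mean of the ductal markers had r of 0.65, 0.53, 0.58 and 0.52 with the first 4 of these genes, and larger values of the other sign were found as well, such as -0.81 between *Slc12a2* and the macrophage markers and -0.74 between *Slc26a6* and the endothelial markers. Among 10503 genes with at least 20 counts per mouse on average, those nearest to *Aqp8* were *Scd2* (r = 0.90), *Itga6* (0.89) and *Ddost* (0.88), with adjusted p of 0.182, 0.0627 and 0.058 at day 7. Those nearest to *Slc4a4* were *Mfsd7a* (0.76), *Sepn1* (0.75) and *Rprd1b* (0.73), and those nearest to *Kcnj15*, at its few counts, were *Pstk* (0.71), *Gm16551* (0.70) and *Jrk* (0.69).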

How the data were processed

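The authors trimmed reads with Trim Galore and cutadapt, checked them with FastQC, aligned them with STAR 2.5.2a to the mouse genome (GRCm38) and counted them per gene with featureCounts; the deposited values are raw counts per gene symbol, with 1 library per mouse. Groups, mouse numbers and sex came from the labels, and mouse 20 was not analysed here. From the counts, symbols passing edgeR's filterByExpr by time point (12195 of 18512) were scaled by TMM and tested with edgeR 4.0.16 (glmQLFit with robust estimation, glmQLFTest; time point and sex as terms, all 23 mice in 1 fit); the interaction of sex and time was fitted with 6 groups. The SE was taken from the size of the log2 fold change and the F value (their quotient after a square root of F), so it restates the test. CPM used a prior count of 2 on the log2 scale. Ratios of counts were tested with scipy 1.17.1. Positions and exon lengths are from GENCODE vM21 (GRCm38; 17760 symbols matched), and promoter windows from RefSeq. The alternatives were DESeq2 1.42.0, other scalings, filters, samples and covariates, and leaving out each mouse; the ratios, and leaving out mice for the sex comparison, were added after the data were seen. The tests were checked on simulated data. The genes, lists and tests were chosen with earlier results of these data known. All 10 genes are named. Of the longer list, the called genes and the 4 most abundant others were to be named, of which 1 is not reported here, and for each called gene the 3 with the highest r. No pair of libraries of a group agreed within sampling noise. Nothing in the labels says more than 1 mouse per library, so p-values measure the spread between mice.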

Additional observations from a re-analysis of the deposited data

How the results depend on the processing

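*Aqp8* and *Kcnj15* kept their direction at day 7 in all alternatives that could be run, and so did *Slc4a4*. Total counts move all genes up, so a rise kept under them carries no weight for *Slc4a4* and *Kcnj15*. The *Slc4a4* call was lost in females alone, in males alone and without baseline mouse 7 or day 7 mouse 14. Of the 9 tested genes, 3 were DEGs at day 7 with TMM, 2 higher and 1 lower. With total counts 2 were, both higher, where 3727 of 12195 genes were DEGs. Without *Kcnj15*, which passed the filter through its day 7 mice, the TMM count was 2 of 8. Only 1 gene was a DEG in females alone, where 234 of 12338 were. Leaving out 1 mouse gave 2 to 3. At day 14 the count of 1 went to 0 with DESeq2's size factors, no filter, a minimum of 10 counts per mouse, no sex term, only the 2 time points compared, females alone or males alone, since *Kcnj15* was lost or, in the second filter and in the fit of 2 time points, not tested. Leaving out 1 mouse gave 0 to 1. Between day 14 and day 7 the count of 0 went to 1 with total counts (*Kcnj15*) and in males alone (*Aqp8*, 0.92, adjusted p = 0.0269), and leaving out 1 mouse gave 0 to 1, with *Aqp8* called without day 7 mouse 9 (0.67) and *Kcnj15* without day 7 mouse 10 (-1.29). For sex it was 0 to 1.

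With total counts the day 7 differences reversed to 0.21 (*Aqp1*), 0.24 (*Aqp12*), 0.23 (*Slc4a2*), 0.32 (*Slc26a6*) and 0.27 (*Ano1*), and the day 14 ones to 0.14 (*Aqp12*), 0.13 (*Slc4a2*), 0.20 (*Slc12a2*), 0.13 (*Slc26a6*) and 0.0334 (*Ano1*), as that scaling moves all genes up. Values near 0 also changed sign in 1 sex: *Slc12a2* at -0.0298 in males at day 7 and 0.0596 in females at day 14, *Aqp1* at -0.16 in females and *Slc26a6* at 0.000743 in males at day 14. Leaving out 1 mouse moved *Slc12a2* between -0.0197 and 0.0511 at day 7 and -0.0643 and 0.00898 at day 14, and *Aqp1* at day 14 between -0.0313 and 0.115.

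Of the longer list, 6 were called at day 7, 10 without the fold threshold and 16 (all higher) with total counts, and 4 to 8 when 1 mouse was left out. The 6 include *Car2*, which passed the filter through its day 7 mice. At day 14, 2 became 1 with total counts, and between day 14 and day 7, 0 became 4. Over all genes, 626 were called at day 7, 3727 with total counts, 348 with at least 10 counts per mouse and 234 in females. At day 14, 96 became 449 with total counts, 31 in females and 12 in males, and between day 14 and day 7, 46 became 477, 5 in females, 30 with at least 10 counts and 23, 22 and 29 without day 7 mouse 15, day 14 mouse 22 or day 14 mouse 24. The sex comparison went from 28 to 42 and the day 7 interaction, by adjusted p, from 1 to 19 with DESeq2. Depth limits *Kcnj15*, *Kcnj16*, *Aqp11*, *Wnk4* and *Car2*. No paired analysis was possible because the mouse numbers are unique to a group.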
